A study of Homo sapiens with 12 samples.

Results

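The RNA of 10 chemokine genes was followed across human colon cancer cells: CXCL1, CXCL2, CXCL3, CXCL5, CXCL8, CXCL10, CXCL11, CCL5, CCL20 and CX3CL1. They were found by their symbols, and all 10 of the 10 symbols matched 1 row each of a table of 62426 genes. Chemokines are small secreted proteins that steer migrating cells through receptors on the cell surface. NF-κB, a transcription factor held in the cytoplasm until inflammatory signals such as TNF or interleukin 1 release it, drives CXCL1, CXCL2, CXCL3, CXCL5, CXCL8 and CCL20. Interferons, the cytokines of antiviral defence, drive CXCL10 and CXCL11, while CCL5 and CX3CL1 answer to both routes. In the colon, epithelial cells use the first route to call neutrophils towards microbes, and the second to call T cells and natural killer cells.

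HCT116 and SW480 are established colorectal carcinoma cell lines. Each was sequenced in 3 groups of 2 libraries, 12 libraries in all. Parental cells carried no construct, CD44s-OE cells were stably transfected with a plasmid encoding the standard isoform of the hyaluronan receptor CD44, and CD44v6-OE cells with a plasmid encoding the isoform that includes variant exon v6. The plasmids were delivered with FuGENE HD and transfected cells were selected with Geneticin, so plasmid, transfection and selection cannot be told apart in any comparison with parental cells. The headers call the transfected libraries pools, and no library of cells with the empty vector was analysed here. The labels do not say whether the 2 libraries of a group came from separate cultures, so every p-value measures the spread between these libraries, which may be technical.

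Total counts ran from 43102156 to 52811889 per library, and where none was seen the limit is 3 read pairs, or 6 counts. That limit lies between 0.114 and 0.139 CPM (counts scaled to the library total), for counting error only. In HCT116 the CD44s-OE libraries overlapped parental in CD44 itself and the CD44v6-OE libraries lay just below it, at 538 and 526 CPM in parental libraries, at 552 and 533 in those labelled CD44s-OE, and at 509 and 524 in those labelled CD44v6-OE. The same 3 groups of SW480 had 172 and 165, 187 and 203, and 135 and 147 CPM, so there the pairs did not overlap and the libraries labelled CD44v6-OE lay below parental. A gene total does not distinguish plasmid from chromosomal CD44 or one isoform from another, and CD44-AS1, the antisense gene at the same locus, was at 1.87, 2.29, 3.38 and 3.91 CPM in the 4 libraries labelled CD44v6-OE and at 0.0658 CPM or less in the other 8. Every direction below therefore refers to libraries as they are labelled.

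Of the 10 genes, 7 lie on chromosome 4 (hg19). CXCL8, CXCL1, CXCL5, CXCL3 and CXCL2 follow one another there, from CXCL8 at chr4:74606258-74609433 (plus strand) and CXCL1 at chr4:74735110-74737025 (plus strand) to CXCL2 at chr4:74962757-74964913 (minus strand). CXCL10 at chr4:76942271-76944650 and CXCL11 at chr4:76954835-76962568, both on the minus strand, form a second group. CCL20 is at chr2:228670455-228682280 (plus strand), CCL5 at chr17:34198495-34207797 (minus strand) and CX3CL1 at chr16:57406389-57418956 (plus strand).

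Because the genes are sorted above by the factor that drives them, stretches of their promoters are shown with the binding-site letters in capitals. They were read from RefSeq promoter windows of 300 bases on GRCh38.p14, which held 8 of the 10 genes (CCL5 and CX3CL1 had no entry). Capitals mark matches to GGNNNTTCC, a κB-like motif, on either strand, and in CXCL10 also a match to GAAANNGAA, a motif like the interferon-stimulated response element. Each stretch runs 5′ to 3′ along the gene, from 100 to 41 bases before the start, or from 231 to 92 bases before it for CXCL10.
CXCL1, chr4:73869293-73869352, plus strand: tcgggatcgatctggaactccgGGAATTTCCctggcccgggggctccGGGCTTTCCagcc
CXCL2, chr4:74099236-74099295, minus strand: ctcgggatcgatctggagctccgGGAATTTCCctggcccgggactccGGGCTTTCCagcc
CXCL3, chr4:74038730-74038789, minus strand: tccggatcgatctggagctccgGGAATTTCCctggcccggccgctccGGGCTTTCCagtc
CXCL5, chr4:73998718-73998777, minus strand: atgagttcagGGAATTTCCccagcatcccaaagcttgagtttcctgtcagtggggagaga
CXCL8, chr4:73740469-73740528, plus strand: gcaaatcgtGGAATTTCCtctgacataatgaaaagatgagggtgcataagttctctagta
CCL20, chr2:227813742-227813801, plus strand: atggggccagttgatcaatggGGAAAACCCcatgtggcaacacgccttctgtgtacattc
CXCL10, chr4:76023589-76023728, minus strand: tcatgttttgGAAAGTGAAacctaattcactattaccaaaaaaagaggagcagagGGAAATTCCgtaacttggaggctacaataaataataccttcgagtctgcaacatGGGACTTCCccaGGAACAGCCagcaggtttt
CXCL11, chr4:76036111-76036170, minus strand: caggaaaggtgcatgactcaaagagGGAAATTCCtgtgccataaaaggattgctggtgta

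All 8 windows held the κB-like letters, which 20.1% of the 35116 windows of all genes held. CXCL10 had 3 places, CXCL1, CXCL2 and CXCL3 had 2 each, and the other 4 had 1. The stretches of CXCL1, CXCL2 and CXCL3 are close copies of one another, as the coding parts of these paralogs are, so the split of reads among these 3 genes is uncertain. The interferon-type letters were in 3 of the 8 windows, those of CXCL2, CXCL3 and CXCL10, against 8.11% of all windows. TGANTCA, an AP-1-like motif, was in 2 of the 8, CXCL8 and CXCL11, against 7.71%. A match of letters is a description and not a measured site.

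In HCT116, the chemokines were low in parental cells and most were far higher in both transfected groups. A gene is called here when its adjusted p is under 0.1 and its log2 fold change is over 1.5 in either direction, by edgeR's quasi-likelihood test with Benjamini-Hochberg adjustment over all tested genes. In HCT116 CD44s-OE against parental, 6 of the 9 tested members were called higher, where 2.71% of all 17335 tested genes were: CXCL1, CXCL8, CCL20, CXCL10, CXCL11 and CCL5. In CD44v6-OE against parental, 6 of 9 were called higher, where 0.738% of all genes were, and CXCL2 took the place of CCL5. No member was called lower in either comparison. CXCL5 had no count in any HCT116 library and was not tested, and of the other 9, CCL20, CXCL10, CXCL11, CCL5 and CX3CL1 passed the filter on low counts only through the transfected groups where they were high. Both comparisons use the same parental libraries. The members were chosen with earlier results of these data known, so the shares of all genes beside these counts are a description and not a test. The plot of log2 CPM by library shows all 10 genes.

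**Figure D1:**
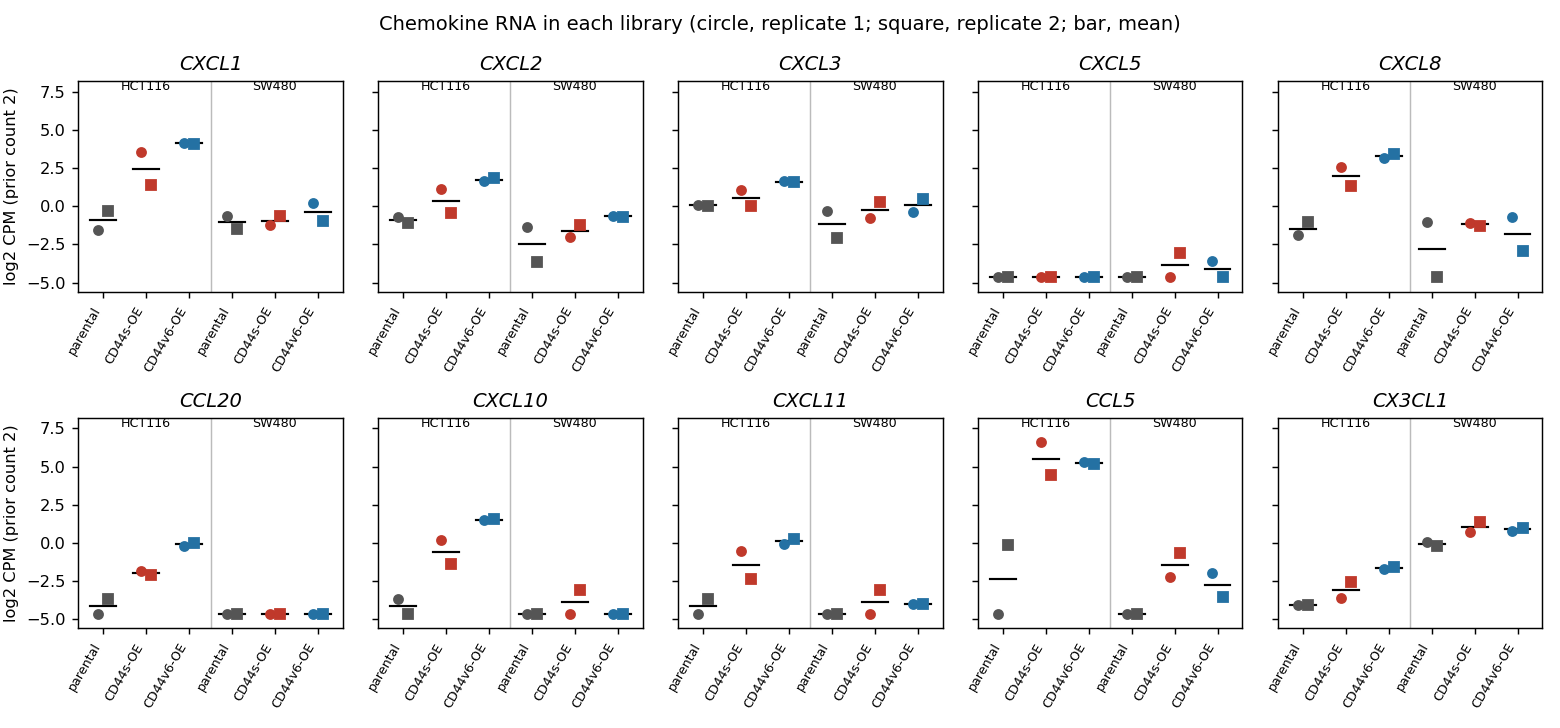
Level of each chemokine in each of the 12 libraries, on the vertical axis as log2 CPM with a prior count of 2, for HCT116 (left of the grey line) and SW480 (right); circles are replicate 1, squares replicate 2 and black bars the mean of the pair. In HCT116, 9 of the 9 detected genes had both CD44v6-OE libraries above both parental libraries, as 27.1% of all tested genes did, while in SW480 most pairs overlapped the parental pair. In HCT116, CCL20, CXCL10, CXCL11, CCL5 and CX3CL1 passed the filter on low counts only through the transfected groups.

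The neutrophil attractants bind CXCR2. CXCL1 was at 0.655 and 1.73 TPM (a level per gene length computed here from the counts) in HCT116 parental libraries, at 21.1 and 5.34 TPM in CD44s-OE, and at 37.7 and 38.0 TPM in CD44v6-OE. Both transfected pairs were above the parental pair. Replicate 1 of CD44s-OE was 4.44 times replicate 2 in CPM scaled by TMM, the size factors of the edgeR fit. The log2 fold change over parental was 3.69 ± 0.80 (SE, n = 2 against 2, adjusted p = 0.0475, edgeR) in CD44s-OE and 5.00 ± 0.82 (adjusted p = 0.0716) in CD44v6-OE.

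CXCL8, or interleukin 8, also binds CXCR1 and is the best known neutrophil attractant. It was at 0.299 and 0.605 TPM in HCT116 parental libraries, at 6.75 and 3.10 TPM in CD44s-OE, and at 11.5 and 14.1 TPM in CD44v6-OE. The 3 pairs did not overlap. Its log2 fold change was 3.64 ± 0.49 (SE, adjusted p = 0.00451, edgeR) in CD44s-OE and 4.82 ± 0.49 (adjusted p = 0.005) in CD44v6-OE. The first stayed between 2.86 and 4.20, with adjusted p of at most 0.0538, when each library was left out in turn. The second stayed between 4.41 and 5.38, with an adjusted p up to 0.109, which was the value without parental replicate 2.

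CXCL2 and CXCL3 differed less. CXCL2 was at 1.2 and 0.927 TPM in HCT116 parental libraries, at 3.82 and 1.41 TPM in CD44s-OE, and at 6.53 and 7.62 TPM in CD44v6-OE. In CD44v6-OE it was called (log2 fold change 2.73 ± 0.50, SE, adjusted p = 0.0461, edgeR), and in CD44s-OE it lay at the edge of the thresholds without being called (1.495 ± 0.50, adjusted p = 0.101). CXCL3 was at 1.36 and 1.33 TPM in parental libraries, at 2.36 and 1.2 TPM in CD44s-OE, and at 4.09 and 3.96 TPM in CD44v6-OE. The CD44s-OE pair of CXCL3 enclosed the parental pair, and the CD44v6-OE pair was above it. Neither passed, with log2 values of 0.60 ± 0.39 (SE, adjusted p = 0.378, edgeR) and 1.58 ± 0.39 (adjusted p = 0.133). Without CD44s-OE replicate 1 the CD44s-OE difference of CXCL3 was -0.08. CXCL1 and CXCL3, close paralogs with nearly the same κB-like stretch, thus had unequal fitted changes in both transfected groups, although the difference between the genes was not tested.

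CCL20, which attracts CCR6-bearing T helper 17 cells and immature dendritic cells, was almost silent in HCT116 parental libraries, with 0 and 2 counts. It had 12 and 10 counts in CD44s-OE, and 44 and 51 counts in CD44v6-OE, or 0.379 and 0.335 TPM, and 1.54 and 1.80 TPM. Over both libraries of a group, the ratio of read pairs per library size to parental was 11.2 (exact 95% counting interval 1.62 to 480.0, 11 pairs against 1) in CD44s-OE and 47.0 (8.04 to 1890.0, 48 pairs against 1) in CD44v6-OE. Both were called, with edgeR adjusted p of 0.062 and 0.0275. Fitted log2 changes of genes with so few parental counts (3.33 ± 0.94 and 5.37 ± 0.85, SE) depend on the prior count.

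The interferon-driven pair behaved alike. CXCL10, which attracts activated T cells and natural killer cells through CXCR3, had 2 and 0 counts in HCT116 parental libraries, 55 and 18 counts in CD44s-OE and 147 and 154 counts in CD44v6-OE. In TPM these were 0.0949 and 0, then 2.36 and 0.819, then 7.00 and 7.38. The ratio of read pairs to parental was 37.5 (exact 95% counting interval 6.33 to 1520.0) in CD44s-OE and 148 (26.1 to 5880.0) in CD44v6-OE, and both were called (edgeR adjusted p = 0.0146 and 0.011). CXCL11, the CXCR3 ligand of highest affinity, had 0 and 2 counts in parental libraries, 32 and 8 counts in CD44s-OE and 49 and 62 counts in CD44v6-OE. Its ratios were 20.3 (3.24 to 841.0) and 54.8 (9.45 to 2200.0), and both were called as well (edgeR adjusted p = 0.047 and 0.0446). Intervals of this kind cover counting error alone, and 1 parental read pair stands behind each of these 4 ratios.

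CCL5, or RANTES, draws T cells, monocytes and eosinophils. It had the highest level per length of the 10 genes in every transfected HCT116 library, with 166 and 40.2 TPM in CD44s-OE and 78.4 and 73.7 TPM in CD44v6-OE. The parental libraries disagreed, with 0 and 44 counts, or 0 and 1.73 TPM. The counts behind the transfected values were 4933 and 1129 (CD44s-OE) and 2098 and 1960 (both CD44v6-OE libraries), so each of the 4 libraries exceeded the higher parental library. CCL5 was called in CD44s-OE (log2 fold change 7.14 ± 1.53, SE, adjusted p = 0.0852, edgeR) and not in CD44v6-OE (6.48 ± 1.51, adjusted p = 0.289), which does not show that the groups differ. With the 0-count parental library left out, the values were 6.12 (adjusted p = 0.136) and 5.47 (adjusted p = 0.374).

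CX3CL1, or fractalkine, is anchored in the membrane and shed by ADAM10 and ADAM17, and its receptor is CX3CR1. It had 1 count in each HCT116 parental library, 2 and 7 counts in CD44s-OE, and 14 and 16 counts in CD44v6-OE. The highest of these, 0.151 TPM, was far under CXCL1 in the same library. The ratios of read pairs to parental were 2.53 (exact 95% counting interval 0.415 to 26.6) and 7.34 (1.71 to 66.2). Neither difference was called (edgeR adjusted p = 0.289 and 0.175).

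Read by class, 3 of the 5 tested NF-κB-driven genes were called higher in HCT116 CD44s-OE, against 4 of 5 for CD44v6-OE, and both interferon-driven genes were called in each. Of all tested genes, 2.71% were called higher in CD44s-OE and 0.738% in CD44v6-OE. Of the pair driven by both routes, 1 of 2 was called in CD44s-OE and 0 of 2 in CD44v6-OE by edgeR, where both had an unadjusted p under 0.05 and DESeq2 called 1, CCL5. The median log2 fold change of the 9 tested members was 3.64 in CD44s-OE and 5.00 in CD44v6-OE, beside 0.04 and 0.00081 over all tested genes. Groups failed to overlap, with both transfected libraries above both parental libraries, for 8 of 9 members in CD44s-OE (27.4% of all genes) and 9 of 9 in CD44v6-OE (27.1%). CCL20, CXCL10, CXCL11, CCL5 and CX3CL1 passed the filter on low counts only through the transfected groups where they were high. Their direction was therefore largely fixed in these calls, medians and counts, which are a description and not a test. The plot of fitted changes places the members side by side.

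**Figure D2:**
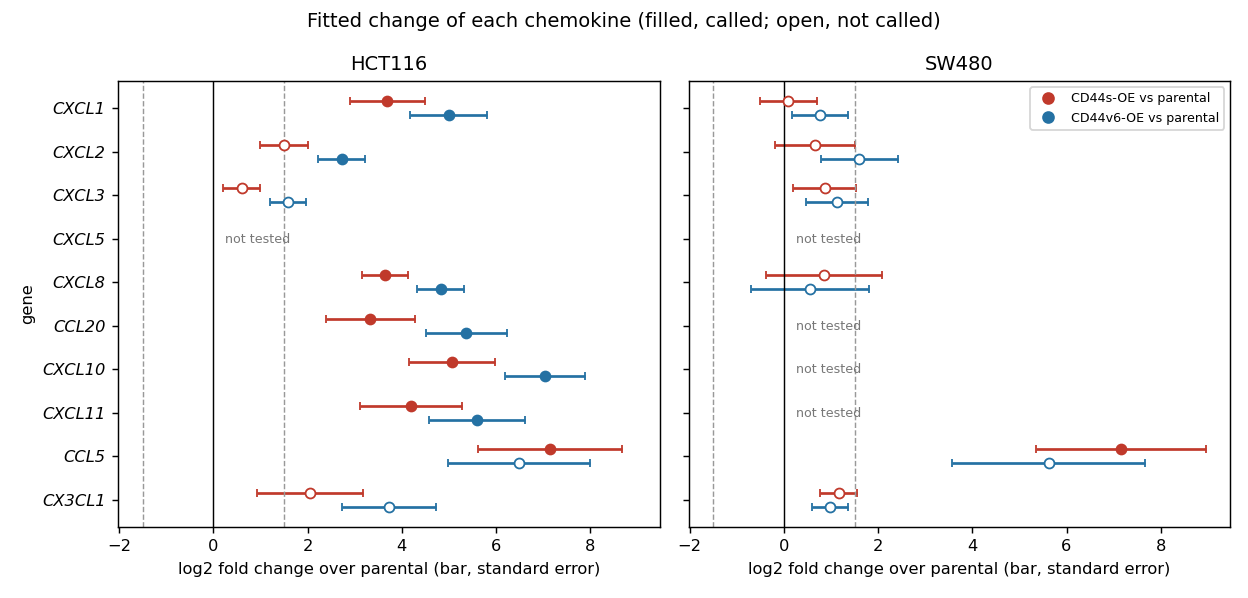
Log2 fold change over parental of each tested chemokine in HCT116 (left) and SW480 (right), with bars for the standard error of the edgeR fit; filled points were called, open points were not, and dashed lines mark a log2 value of 1.5 in either direction. The HCT116 points lie to the right of 0, from 0.60 for CXCL3 to 7.14 for CCL5, and CCL5 in CD44s-OE is the called gene of SW480, against a parental group with 0 counts.

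The size of these counts rested on single libraries. Each refit also re-estimated the spread and the adjustment for all tested genes, and the share of all genes called in each is not given. The shifts are therefore not shown to be particular to the chemokines. In CD44s-OE the number called was 2 without parental replicate 1, 1 without parental replicate 2, 3 without either CD44v6-OE library, and 3 with only the 4 libraries compared. In CD44v6-OE it was 2 without parental replicate 1, 0 without parental replicate 2, 2 without either CD44v6-OE library, and 8 without either CD44s-OE library. With 2 libraries against 2, an exact permutation test over samples cannot go below p = 0.333, so none is given.

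The direct comparison of the isoforms in HCT116 asked whether the chemokines differ between CD44s-OE and CD44v6-OE. Fitted levels were lower in CD44s-OE for 8 of the 9 tested genes, from -0.98 for CXCL3 to -2.04 for CCL20 on the log2 scale, and higher for CCL5 (0.66 ± 1.07, SE). None was called by edgeR, where 0.288% of all genes were called in either direction, although 5 members had an unadjusted p under 0.05 and DESeq2 called 1, CXCL10 (log2 fold change -1.98, adjusted p = 0.0247). In the edgeR fit CXCL10 differed by -1.97 ± 0.54 (SE, adjusted p = 0.205) and CXCL8 by -1.18 ± 0.39 (adjusted p = 0.307). Both CD44s-OE libraries were below both CD44v6-OE libraries for 8 of 9 members, as for 21.0% of all genes.

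The CD44s-OE replicates lay further apart than the CD44v6-OE replicates in that comparison. Replicate 1 was higher than replicate 2 for CXCL1, CXCL2, CXCL3, CXCL8, CCL20, CXCL10, CXCL11 and CCL5, by 1.27 times (CCL20) to 4.62 times (CCL5) in TMM-scaled CPM, while the same ratio in CD44v6-OE lay between 0.805 and 1.09. CX3CL1 went the other way, with 2 and 7 counts. Without CD44s-OE replicate 1, the log2 fold change was -2.75 for CXCL1 and -1.96 for CXCL8, and CCL5 changed sign to -0.84. That refit left 1 CD44s-OE library and re-estimated the spread for all tested genes, so a shift particular to the chemokines is not shown.

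The classes took different shares of the chemokine RNA in the transfected groups of HCT116. Summed over the 10 genes, the level was 3.61 and 6.47 TPM in parental libraries, 204 and 52.8 TPM in CD44s-OE, and 148 and 149 TPM in CD44v6-OE. CCL5 made up 81.5% and 76.3% of that sum in CD44s-OE, against 52.8% and 49.5% in CD44v6-OE. The NF-κB-driven genes together reached 34.4 and 11.4 TPM in CD44s-OE and 61.4 and 65.5 TPM in CD44v6-OE, and the interferon-driven pair 3.26 and 1.06 TPM, and 8.54 and 9.34 TPM. The NF-κB sum was thus 10.6 and 10.8 times the interferon sum in CD44s-OE and 7.19 and 7.01 times in CD44v6-OE. With 2 libraries in each group these ratios have no test. A sum can rise because more cells of a pool carry the RNA or because each cell holds more, and bulk libraries do not tell these apart.

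**Figure D3:**
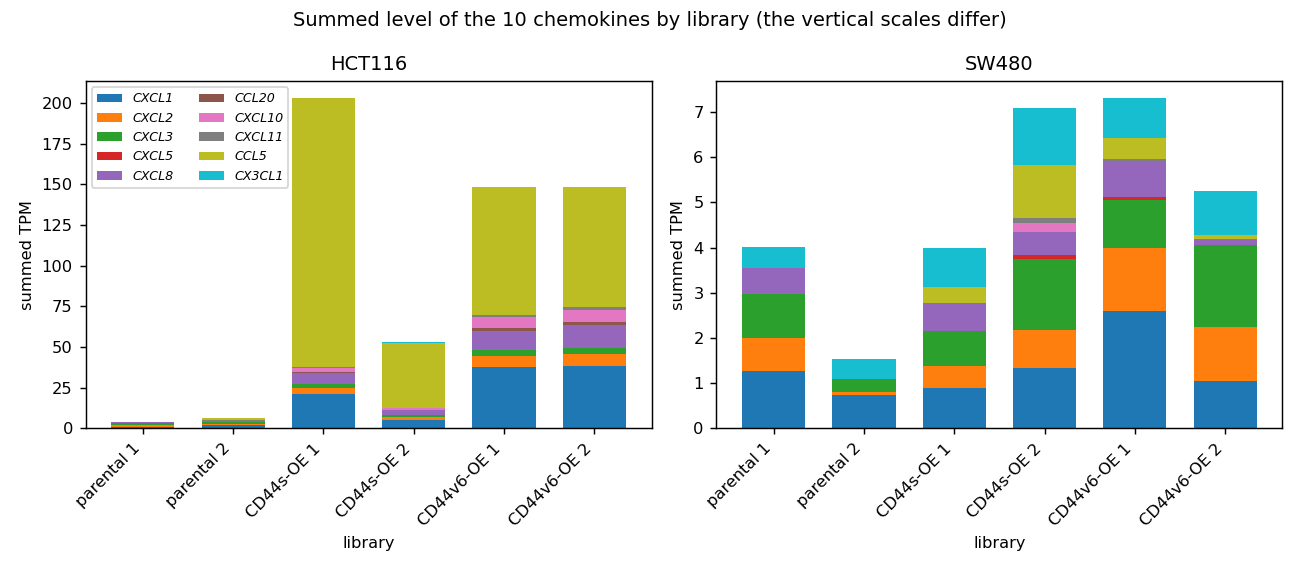
Summed level of the 10 chemokines in each library, in TPM, stacked by gene, for HCT116 (left) and SW480 (right, with a smaller vertical scale). CCL5 fills most of the HCT116 CD44s-OE bars, which reach 204 and 52.8 TPM, while the SW480 sums stay between 1.52 and 7.32 TPM.

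SW480 cells held little RNA of these 10 genes in any group. The summed level of the 10 genes was 4.02 and 1.52 TPM in parental libraries, 3.98 and 7.09 TPM in CD44s-OE, and 7.32 and 5.26 TPM in CD44v6-OE. The filter kept 6 members. CCL20 had no count in any SW480 library, CXCL5 had 4 counts in 1 CD44s-OE library and 2 in 1 CD44v6-OE library, CXCL10 had 4 counts in 1 CD44s-OE library, and CXCL11 had 4 counts in 1 CD44s-OE library and 1 in each CD44v6-OE library. All of these are at or under the floor of 6 counts.

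One member was called higher in SW480 CD44s-OE, where 1.39% of the 17539 tested genes were. It was CCL5, with 0 counts in both parental libraries, 8 and 30 counts in CD44s-OE and 10 and 2 counts in CD44v6-OE. CCL5 thus passed the filter on low counts only through the transfected groups, so its direction was fixed. With the parental group set at the floor of 3 read pairs, the ratio was 5.78 in CD44s-OE and 1.96 in CD44v6-OE. Exact 95% counting intervals, computed with the 0 parental read pairs seen and not with the floor, had lower ends of 4.26-fold and 1.15-fold. The adjusted p was 0.0711 in CD44s-OE and 0.438 in CD44v6-OE (edgeR), and the fitted log2 values, 7.16 and 5.62, depend on the prior count. Leaving out either CD44s-OE library or CD44v6-OE replicate 1 ended the call. The 8 leukocyte markers summed to 2.71 and 3.98 TPM in SW480 parental libraries, 7.70 to 9.68 TPM in CD44s-OE and 6.20 to 7.36 TPM in CD44v6-OE, and their part in the CCL5 result was not tested. Among them LYZ, or lysozyme, was called higher in CD44s-OE (log2 fold change 2.12 ± 0.56, SE, edgeR adjusted p = 0.078), and CD14, at 3.06 and 2.17 TPM in parental libraries, was at up to 7.87 TPM there (adjusted p = 0.0897) with a fold under the threshold. PTPRC, the pan-leukocyte marker, was at 0 in 5 of the 6 SW480 libraries and at 0.0147 TPM in CD44s-OE replicate 1.

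CX3CL1 was detected in all 6 libraries of SW480, at 0.472 and 0.434 TPM in parental libraries, at 0.859 and 1.25 TPM in CD44s-OE, and at 0.898 and 0.975 TPM in CD44v6-OE, so both transfected pairs were above the parental pair. The differences were not called, with log2 values of 1.16 ± 0.39 (SE, adjusted p = 0.154, edgeR) and 0.97 ± 0.39 (adjusted p = 0.483).

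Of the neutrophil attractants in SW480, CXCL1 and CXCL8 overlapped across groups. CXCL1 was at 1.27 and 0.724 TPM in parental libraries, at 0.89 and 1.33 TPM in CD44s-OE, and at 2.60 and 1.04 TPM in CD44v6-OE. CXCL8 was at 0.58 and 0 TPM, 0.601 and 0.496 TPM, and 0.807 and 0.115 TPM, so the spread within a pair was as wide as the differences between pairs. The log2 differences over parental were 0.09 ± 0.61 (CXCL1) and 0.85 ± 1.23 (CXCL8) in CD44s-OE, against 0.76 ± 0.60 and 0.55 ± 1.25 in CD44v6-OE (SE), with edgeR adjusted p between 0.792 and 0.966. CXCL2 ran from 2 counts in parental replicate 2 to 28 in CD44v6-OE replicate 1, and CXCL3 from 10 to 62 counts.

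In SW480 CD44v6-OE, 0 of 6 members were called by edgeR (0.405% of all genes were called higher), 2 had an unadjusted p under 0.05, and DESeq2 called 0. Between CD44s-OE and CD44v6-OE, 0 of 6 were called (1.02% of all genes in either direction), 0 had an unadjusted p under 0.05, and DESeq2 called 0. Both transfected libraries were above both parental libraries for 2 of 6 members in CD44s-OE, CCL5 and CX3CL1, as for 23.4% of all genes, and for 3 of 6 in CD44v6-OE, with CXCL2 added, as for 22.1%. The direction of CCL5, which had no parental count, was fixed by the filter. For 1 of 6, CXCL2, both CD44s-OE libraries were below both CD44v6-OE libraries, as for 24.5% of all genes. Parental replicate 1 mattered here, since without it 3 members, CXCL2, CXCL3 and CXCL8, were called higher in CD44v6-OE and 2, CXCL8 and CCL5, in CD44s-OE. The median log2 fold change of the 6 tested members was 0.86 in CD44s-OE and 1.05 in CD44v6-OE (0.97 with CCL5 at its ratio to the floor), beside 0.0022 and -0.01 over all tested genes.

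Whether the response differed between the lines was tested as an interaction over all 12 libraries, written as SW480 minus HCT116 and called at an adjusted p under 0.1. No member was called by edgeR in any of the 3 interactions, and 3.92%, 0.409% and 0.491% of 19567 genes were for CD44s-OE against parental, CD44v6-OE against parental, and CD44s-OE against CD44v6-OE. CCL20, CXCL10 and CXCL11 were at or under the floor in every SW480 library, so none of their interactions could decide. For CD44v6-OE the SE of the log2 difference was 12260 for CCL20 and 18080 for CXCL10. At an unadjusted p under 0.05 there were 1, 3 and 2 members, and DESeq2 called 1, 1 and 0. The 2 members of the third interaction were CX3CL1 and CXCL10, and the value of CXCL10 rests on SW480 counts under the floor. CXCL1 was the gene DESeq2 called, with a log2 difference of -3.60 (adjusted p = 0.0416) for CD44s-OE and -4.20 (adjusted p = 0.0401) for CD44v6-OE. In edgeR the same differences were -3.56 ± 1.07 (SE, adjusted p = 0.13) and -4.19 ± 1.06 (adjusted p = 0.212). CXCL8 differed by -2.73 ± 1.48 (adjusted p = 0.412) and -4.19 ± 1.52 (adjusted p = 0.452), and CX3CL1 by -0.87 ± 0.96 (adjusted p = 0.726) and -2.71 ± 0.92 (adjusted p = 0.372). A call in HCT116 without a call in SW480 is thus not shown by edgeR to be a difference between the lines. The call count of 0 became 1 for CD44s-OE without HCT116 CD44s-OE replicate 2 (CXCL1) or without SW480 parental replicate 2 (CXCL8), and 1 for CD44v6-OE without either HCT116 CD44s-OE library (CXCL1) or without SW480 parental replicate 2 (CXCL8).

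Before transfection the lines differed in 1 of the 9 tested members, where 29.0% of all genes were called. CX3CL1 was higher in SW480 parental than in HCT116 parental libraries, with 39 and 42 counts against 1 and 1 (log2 difference 5.39 ± 0.70, SE, edgeR adjusted p = 1.95e-05). Without SW480 parental replicate 1, 4 members were called, with CXCL2, CXCL3 and CXCL8 lower in SW480. Without HCT116 parental replicate 1, 2 were called, with CCL5 lower in SW480.

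Genes of the pathways around the chemokines were examined in the same way. Of 19 NF-κB subunits and feedback targets, 4 were called higher in HCT116 CD44s-OE (RELB, NFKBIZ, TNFAIP3 and BIRC3) and 4 in CD44v6-OE (NFKBIZ, TNFAIP3, BIRC3 and TRAF1). Of all tested genes, 2.71% and 0.738% were called higher. The median log2 values of the list were 0.66 and 0.85. BIRC3, an inhibitor of apoptosis that NF-κB induces, was at 0.334 and 0.298 TPM in parental libraries, 3.42 and 1.63 TPM in CD44s-OE and 11.8 and 14.2 TPM in CD44v6-OE. Its log2 fold change was 3.19 ± 0.39 (SE, adjusted p = 0.00352, edgeR) and 5.35 ± 0.41 (adjusted p = 0.00106), and it was the gene of this list called between the isoforms (-2.16 ± 0.34 in CD44s-OE against CD44v6-OE, adjusted p = 0.0364). RELA, the main activating subunit, was not called, at -0.03 ± 0.19 and 0.09 ± 0.19 (SE). Without parental replicate 1, parental replicate 2 or CD44s-OE replicate 1, the calls of this list in CD44s-OE fell to 2, 1 and 1, and in CD44v6-OE each parental library left out gave 1.

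Of 19 interferon response genes, 9 were called higher in HCT116 CD44s-OE and 6 in CD44v6-OE, where 2.71% and 0.738% of all tested genes were. All 19 had a positive log2 value in each comparison, with medians of 4.12 and 5.10. At least 4 of them, with at most 6 counts in each parental library, passed the filter only through the transfected groups, so their direction was fixed. IFI44 was at 0.0547 and 0.231 TPM in parental libraries, at 18.7 and 3.83 TPM in CD44s-OE, and at 43.7 and 47.1 TPM in CD44v6-OE. Its log2 fold change was 6.51 ± 1.23 (SE, adjusted p = 0.0474, edgeR) and 8.30 ± 1.23 (adjusted p = 0.0874). IFI44L, its neighbour, had 0 parental counts, 54 and 6 counts in CD44s-OE and 150 and 165 counts in CD44v6-OE. The number called moved with the libraries used. Without parental replicate 1 or 2 it was 3 and 2 genes in CD44s-OE, against 2 and 1 in CD44v6-OE. It was 4 and 2 without either CD44v6-OE library, 18 in CD44s-OE without CD44s-OE replicate 2, and 16 in CD44v6-OE without either CD44s-OE library. DESeq2 called 15 in each comparison.

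Among 19 inducing cytokines and interferons, 9 passed the filter in HCT116. In CD44s-OE 3 were called higher (IFNB1, IFNE and IFNL3) and in CD44v6-OE 1 (IFNB1), where 2.71% and 0.738% of all tested genes were. IFNB1 passed the filter on low counts only through the transfected groups, so its direction was fixed. IFNL3 had 3 and 12 parental counts. In CD44s-OE 1 was called without parental replicate 1 and 0 without parental replicate 2. In CD44v6-OE 0 were called when any parental or CD44v6-OE library was dropped, and 5 without either CD44s-OE library, while DESeq2 called 5 and 4 with all libraries. IFNB1, interferon β, had 0 counts in both parental libraries, 70 and 14 counts in CD44s-OE, and 41 and 64 counts in CD44v6-OE. IFNL1, the type III interferon λ1, had 6 and 48 counts in parental libraries, 2986 and 266 counts in CD44s-OE, and 2226 and 2194 counts in CD44v6-OE, and was not called (edgeR adjusted p = 0.16 and 0.374). IFNL1 and CCL5 put the 6 HCT116 libraries in the same order, with the higher parental library 2 in both. Reads of IFNL1, IFNL2 and IFNL3 are shared among near-identical genes, so their split is uncertain. TNF had 0 parental counts and at most 16 counts in a transfected HCT116 library, while IL1B and IFNG had none in any of the 12 libraries.

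Upstream of these, 1 of 16 tested receptors and nucleic acid sensors was called higher in HCT116 CD44s-OE and 2 in CD44v6-OE, where 2.71% and 0.738% of all tested genes were. In CD44s-OE the count was 0 without parental replicate 2, 2 without CD44s-OE replicate 1 and 3 without CD44s-OE replicate 2, and in CD44v6-OE it was 0 without either parental library and 1 without either CD44v6-OE library. RIGI (also DDX58), a cytoplasmic sensor of viral RNA, was at 3.70 and 4.54 TPM in parental libraries, 34.7 and 15.6 TPM in CD44s-OE and 66.5 and 69.9 TPM in CD44v6-OE, with log2 fold changes of 2.81 ± 0.39 (SE, adjusted p = 0.0099, edgeR) and 4.05 ± 0.41 (adjusted p = 0.0129). TLR3, the endosomal receptor for double-stranded RNA, was called in CD44v6-OE (2.27 ± 0.37, adjusted p = 0.0301). Of 7 regulators of chemokine mRNA decay, 0 were called in either comparison by edgeR or DESeq2, and 5 and 3 had an unadjusted p under 0.05. In CD44s-OE 4 were lower with an edgeR adjusted p under 0.1 and a fold under the threshold. These were ELAVL1, KHSRP, HNRNPD and ZFP36L2, with log2 values from -0.59 to -0.47, and the other 3 had positive values. Of 6 tested chemokine processing proteases, 1 was called in each comparison, MMP1 in CD44s-OE (3.13 ± 0.91, adjusted p = 0.0672) and DPP4, which trims CXCL10 and CXCL11, in CD44v6-OE (1.83 ± 0.19, adjusted p = 0.005). DPP4 was also higher in CD44s-OE, with a fold under the threshold (1.025 ± 0.19, SE, edgeR adjusted p = 0.0156). ADAM10 and ADAM17, the sheddases of CX3CL1, lay between 0.06 and 0.20 on the log2 scale and were not called.

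**Figure D4:**
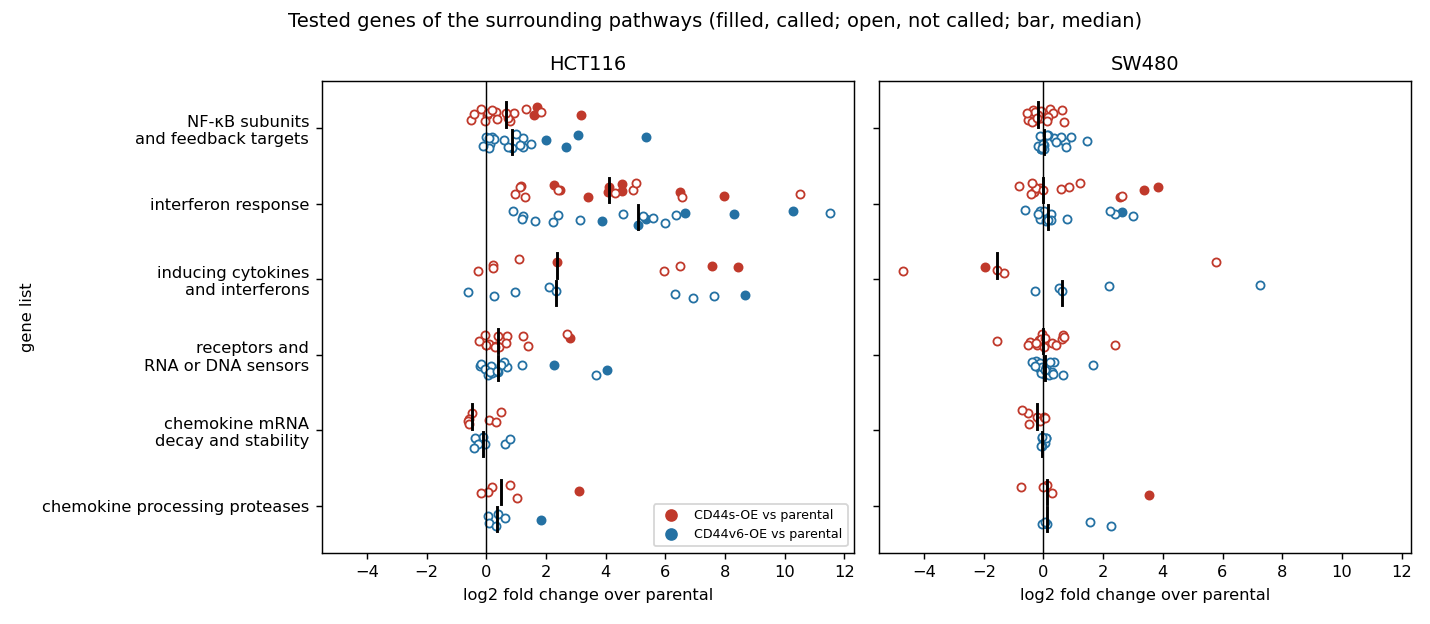
Log2 fold change over parental of each tested gene in 6 lists around the chemokines, for HCT116 (left) and SW480 (right); filled points were called, open points were not, and black bars are medians. In HCT116 the interferon response list has medians of 4.12 and 5.10, while in SW480 its medians are -0.0054 and 0.15.

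The same lists were examined in SW480. Of 15 tested interferon response genes, 3 were called higher in CD44s-OE (IFIT1, IFIT2 and SAMD9) and 1 in CD44v6-OE (SAMD9), where 1.39% and 0.405% of all tested genes were. Without either CD44s-OE library 1 was called in CD44s-OE. In CD44v6-OE 0 were called without either CD44s-OE library or without CD44v6-OE replicate 1, and 2 without either parental library, while DESeq2 called 3 and 4. SAMD9, an antiviral factor, was at 0.232 and 0.0719 TPM in parental libraries, at 2.61 and 1.96 TPM in CD44s-OE, and at 1.22 and 0.791 TPM in CD44v6-OE (log2 fold changes 3.84 ± 0.50 and 2.65 ± 0.49, SE, edgeR adjusted p = 0.00276 and 0.0598). IFIT1, a binder of viral RNA, differed by 3.36 ± 0.62 (adjusted p = 0.0171) in CD44s-OE. None of the 19 NF-κB subunits and targets was called in either group by edgeR or DESeq2, with 1 and 3 at an unadjusted p under 0.05. IFNB1 had no count in any SW480 library, and IFNL1 had 0 in parental libraries and 4 to 16 counts in the transfected ones. As interactions (SW480 minus HCT116, adjusted p under 0.1), 2 of 19 NF-κB genes were called lower for CD44s-OE (BIRC3 and CYLD) and 1 for CD44v6-OE (BIRC3), and 3 of 19 interferon response genes (ISG15, IFIT3 and MX1) and 1 (IFIT3). Of all tested genes, 3.92% and 0.409% were called in either direction. BIRC3 differed by -3.00 ± 0.60 (SE, edgeR adjusted p = 0.0197) and -3.85 ± 0.58 (adjusted p = 0.0154). CSF2, the growth factor GM-CSF, was called lower in CD44s-OE (-1.97 ± 0.50, adjusted p = 0.0661). Of 5 tested chemokine processing proteases, 1 was called higher in SW480 CD44s-OE and 0 in CD44v6-OE. It was DPP4 (3.54 ± 0.53, SE, edgeR adjusted p = 0.00573), which had 4 and 12 counts in parental libraries.

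Other chemokines and the receptors were mostly untested in HCT116 for lack of counts. Of 33 other chemokines, 3 were tested in HCT116 and 0 were called by edgeR or DESeq2 in CD44s-OE or CD44v6-OE, with 1 at an unadjusted p under 0.05 in each. CXCL16, the most abundant of them, was at 58.6 and 70.0 TPM in parental libraries, 48.3 and 26.1 TPM in CD44s-OE, and 56.4 and 60.0 TPM in CD44v6-OE (log2 values -0.60 ± 0.28 and -0.14 ± 0.27, SE). Of 23 chemokine receptors, 3 were tested in HCT116, and CXCR4, the receptor of CXCL12, was called in CD44s-OE (2.08 ± 0.45, adjusted p = 0.0272, edgeR) and not in CD44v6-OE (0.81 ± 0.46, adjusted p = 0.575). In SW480, 6 other chemokines and 10 receptors passed the filter, CXCL16 was at 15.6 to 42.3 TPM, and CXCR4 was at 36.3 to 81.5 TPM. There 0 genes of both lists were called in CD44s-OE or CD44v6-OE by edgeR or DESeq2, with 2 and 1 other chemokines and 2 and 3 receptors at an unadjusted p under 0.05. CCR6, the receptor of CCL20, had no count in any library.

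Chromosomal neighbours of the chromosome 4 members were examined for the same differences. Within 500 kb of the CXCL8 to CXCL2 stretch and 250 kb of CXCL10 and CXCL11, 12 other genes were tested in HCT116. Their log2 values had a median of 0.17 in CD44s-OE, with 1 called (ENSG00000269559, 4.52 ± 1.14, SE, edgeR adjusted p = 0.044), and of 0.066 in CD44v6-OE, where the same gene was at 3.27 ± 1.24 (adjusted p = 0.359). EREG and AREG, growth factors of the EGF family whose genes lie within that window, were at -0.22 and 0.67 in CD44s-OE and at 0.01 and 0.05 in CD44v6-OE. In SW480, 13 other genes were tested, with medians of 0.24 and -0.05. RASSF6 was called higher in CD44s-OE (4.73 ± 0.90, SE, edgeR adjusted p = 0.0197) and in CD44v6-OE (5.87 ± 0.87, adjusted p = 0.0274). Of all tested genes, 2.71% and 0.738% were called higher in HCT116, and 1.39% and 0.405% in SW480.

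Genes with the most similar patterns were ranked by Pearson r of log2 CPM centred within each line, over the 12 libraries, which share their groups and replicate heights. For CXCL1, the NF-κB-driven member with the highest mean level, the first 5 of 12387 genes were IFIH1 (r = 0.979), OAS1 (0.963), TAPBPL (0.962), DDX58 (0.957) and IFI44 (0.955). For CXCL10 they were MAP3K8 (r = 0.954), IFIT3 (0.948), PPM1K (0.933), DHX58 (0.928) and BST2 (0.927). For CCL5 they were SHC2 (r = 0.958), IFNL1 (0.956), FCGRT (0.944), IFNL3 (0.94) and SLC66A1L (0.938). Within the 6 HCT116 libraries, CXCL1 had r = 0.998 with CXCL11, 0.991 with CXCL8 and 0.956 with CXCL10, so the order of libraries did not divide by class, and CCL5 had its lowest r with CX3CL1 (0.65) and CXCL3 (0.662). These values describe the libraries and carry no test.

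Of the 7 colon epithelial markers, KRT8 was at 1291 to 4546 TPM and EPCAM at 82.7 to 341 TPM in all 12 libraries. VIL1, the microvillus protein villin, was at 0.163 TPM or less in HCT116, and CDH1, or E-cadherin, was at 0.695 and 0.431 TPM in SW480 CD44s-OE. In HCT116 the 8 leukocyte markers summed to 0.874 to 1.03 TPM in parental libraries, 1.22 to 1.75 TPM in CD44s-OE and 1.79 to 1.92 TPM in CD44v6-OE, and PTPRC was at 0 in all 6. Fibroblast markers summed to 4.64 to 6.35, 10.0 to 19.7 and 10.8 to 11.6 TPM, with COL3A1 called higher in both transfected groups and PDGFRB called lower in CD44s-OE (-2.00 ± 0.67, SE, edgeR adjusted p = 0.0982), and the 3 endothelial markers that matched to at most 0.438 TPM. EPCAM was at 256 and 289 TPM in HCT116 parental libraries and at 82.7 and 140 TPM in CD44s-OE, and CDH1 was called lower there (-1.61 ± 0.23, SE, edgeR adjusted p = 0.00541). Of the 7 epithelial markers there, 5 had negative values. VIL1 was among the 2 with positive values, without being called (2.34 ± 0.93, SE, edgeR adjusted p = 0.152). In SW480 CD44s-OE, EPCAM (-1.80 ± 0.16, adjusted p = 0.000548) and CDH1 (-3.43 ± 0.73, adjusted p = 0.0832) were called lower, and 6 of the 7 epithelial markers had negative values. VIL1 went the other way, at 2.44 and 5.63 TPM in parental libraries and 6.19 and 8.12 TPM in CD44s-OE. Of 3 tested fibroblast markers, LUM was called higher in CD44s-OE (4.63 ± 0.83, adjusted p = 0.0149), and the other 2 had negative values. LUM was also called higher in CD44v6-OE (4.59 ± 0.83, adjusted p = 0.0552), where 2 of the 3 had positive values. The part of these marker differences in the chemokine results was not tested.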

How the data were processed

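Per the labels, polyA RNA of 12 libraries (2 per group) was sequenced in pairs with DNBSEQ. The authors trimmed reads, aligned them to hg19 with STAR 2.7.9a, and counted stranded exon reads with featureCounts (Subread 2.0.3). The deposited counts are raw; in all 12, 4 is more common than 3 and 6 than 5, so both mates appear to have been counted. A second deposited table has variance-stabilized values on a log2 scale from the authors' DESeq2 1.30.1, and served only to match symbols.

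CPM and TPM were computed here from counts and gene lengths. CPM of CD44 and of the floor used library totals, while the replicate ratios, the plotted log2 CPM and the correlations used totals scaled by TMM. Each line was fitted alone (6 libraries) with edgeR 4.0.16 in R 4.3.3 (TMM, filterByExpr, robust quasi-likelihood), and interactions over 12 libraries, with 2 libraries per group giving little power. Scripts were tested on simulated data. Alternatives were DESeq2 1.42.0, other scaling, filters, thresholds, a replicate block and leaving out each library. Shares of all tested genes called under these alternatives are not given, for members or for lists. All members were named, and at most 2 called genes per list and direction, largest change first; genes singled out beyond that (CXCL16, IFNL1, RELA, EREG and the like) were chosen after their values were seen. Members and lists were chosen with earlier results of these data known. Sequences are from RefSeq.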

Additional observations from a re-analysis of the deposited data

How the results depend on the processing

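Of 733 values of single members under alternative settings, 637 kept their direction and their side of the threshold, 48 lost a call, 37 gained one and 11 changed sign, all 11 with a library left out. RLE size factors, in 46 of 46 values, and counts halved and rounded up, in 39 of 39, changed no call of a tested member, although halving left CCL5 of SW480 untested. With each library left out in turn, assuming that a lone library varies like the other groups, the members called ran from 1 to 7 in HCT116 CD44s-OE, 0 to 8 in CD44v6-OE and 0 to 6 between them, from 0 to 2, 0 to 3 and 0 to 0 in the same comparisons of SW480, from 0 to 1, 0 to 1 and 0 to 0 for the interactions, and from 1 to 4 between the parental lines. The log2 fold changes that changed sign ran from -0.079 to 1.05 (CXCL3, HCT116 CD44s-OE), -0.84 to 1.36 (CCL5, HCT116 CD44s-OE against CD44v6-OE), -0.31 to 0.61 (CXCL1), -0.24 to 2.83 (CXCL2) and -0.21 to 7.26 (CXCL8) in SW480 CD44s-OE, -1.30 to 6.97 (CXCL8, SW480 CD44v6-OE), and for the interactions -1.45 to 0.21 (CX3CL1) and -3.83 to 3.69 (CXCL8) for CD44s-OE and -6.06 to 2.23 (CXCL8) for CD44v6-OE.

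Between HCT116 CD44s-OE and CD44v6-OE, 2 members were called without the filter and 1 each with the replicate block and with DESeq2. In HCT116 CD44s-OE 3 were called with only the 4 libraries compared. In SW480 CD44s-OE 0 were called at an adjusted p under 0.05, at a mean count of at least 50, with counts halved, and with only the 4 libraries compared. The interaction for CD44s-OE had 1 without the filter, 1 with robust=FALSE and 1 with DESeq2, and that for CD44v6-OE 1 without the filter and 1 with DESeq2. Between the parental lines 0 were called at a mean count of at least 50, and 2 each with robust=FALSE, the replicate block and DESeq2. The filter settings change which genes are tested, and the cause of the other changes was not tested.

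Replicate numbers did not pair the samples, since deviations of same-numbered libraries correlated at 0.015 to 0.0483 in HCT116 and -0.085 to 0.121 in SW480. With the replicate block CXCL1 (adjusted p = 0.19) and CCL5 (adjusted p = 0.211) were not called in HCT116 CD44s-OE, which left 4 members. In CD44v6-OE CXCL1 (adjusted p = 0.289) was not called and CXCL3 (adjusted p = 0.0723) was, and CXCL10 was called between the isoforms (log2 fold change -2.15, adjusted p = 0.0868), all by edgeR. Depth limits CCL20, CXCL10, CXCL11 and CX3CL1, whose HCT116 parental libraries held 0 to 2 counts.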
